A study of Mustela putorius furo with 8 samples.

Results

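Notch signaling passes between touching cells. A Delta-like or Jagged ligand on the sending cell binds a Notch receptor on its neighbour, the receptor is cut, and its inner part enters the nucleus, where it joins RBPJ and switches on repressors of the HES and HEY families. In the pancreas the pathway is known for holding progenitor cells back from endocrine fate, HES1 is a classic gene of ductal and centroacinar cells, and in stratified and airway epithelia ligands and receptors divide between basal cells and the layers above them. The genes described here are the ligands DLL1, JAG1 and JAG2, the receptors NOTCH1, NOTCH2 and NOTCH3, and the targets HES1, HEY1 and NRARP. They were taken by symbol as a list of 9 core pathway genes, drawn up with earlier results of these data known, and no level or difference enters the rule itself. Of the 9, 8 had a row among the 27912 genes counted, and NRARP was not analysed here.

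The cells were pancreatic ductal cells of newborn ferrets, 1 to 3 days old, that were either wild type (WT) or homozygous knockouts of CFTR (CF), the chloride and bicarbonate channel lost in cystic fibrosis. Ducts were freed with collagenase, the cells were grown for 10 passages and then polarized at an air-liquid interface (ALI), which turns them into sheets called polarized pancreatic ductal epithelia (PDEs). Each of the 8 libraries was a 10x droplet single-cell library of 1 genotype on day 2, 5, 7 or 9 at ALI. Several animals of a genotype were pooled in a library and the cells are not assigned to animals, so each group was 1 library, no comparison has a replicate check, and genotype, animal pool and library cannot be told apart.

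The deposited cell table held 32945 cells, 21600 WT and 11345 CF, with 1607 to 6224 cells and 34735952 to 114585136 unique molecular identifiers (UMIs, counts of captured RNA molecules) in a library. The median cell had 14949 to 16862 UMIs in the WT libraries and 17833 to 23427 in the CF libraries, and 411 of the 1607 CF cells of day 7 had fewer than 3000. CFTR stood at 6.57, 16.9, 15.9 and 29.5 counts per 1000000 UMIs (CPM) in WT on days 2, 5, 7 and 9 and at 2.50, 8.69, 11.1 and 11.4 CPM in CF. The transcript was thus lower but present in every CF library, and counts of a transcript's end do not check a disruption elsewhere in the gene. The 6 listed ductal genes (ADIRF, CAPG, S100A10, KRT5, KRT15 and KRT19) summed to 6719 to 10055 CPM in WT and 8249 to 10502 CPM in CF, where KRT19 led in both. KRT5 and KRT15 are also counted below as basal genes, so this sum does not set ductal apart from basal cells. Endocrine markers summed to at most 0.112 CPM and endothelial markers to at most 0.259 CPM, with INS, GCG, NEUROD1, CDH5 and TEK at 0 in all libraries. Stromal markers summed to 2.30 to 5.79 CPM in WT and 1.54 to 30.2 CPM in CF, where COL1A1 led, and immune markers to 4.32 to 13.2 and 4.98 to 21.8 CPM, with CSF1R at 0. Their part in the results was not tested. The WT cells stood apart in 1 respect that touches every genotype comparison. SOX2, a transcription factor of foregut and airway epithelium, was at least 10 CPM in 29 of the 41 WT clusters and under 10 CPM in the other 12, whereas no CF cluster reached 10 CPM. Values for the WT cells of the 12 SOX2-low clusters alone are therefore given beside the genotype comparisons of the members. The genotype differences of all other genes named below were not set against these cells.

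Levels are given as CPM of the UMIs summed over the cells of a library, with exact Poisson intervals in the figure, and the spread they show is counting error only. In such sums fewer cells expressing a gene and less RNA per cell cannot be told apart. Levels were not compared between genes, since UMIs are not corrected for how well each transcript is captured. A gene was called apart when it differed 2-fold or more on the log2(CPM + 1) scale and reached 10 CPM in at least 1 of both libraries. HEY1 and NOTCH3 stayed under 10 CPM in all 8 libraries, so 6 of the 8 measured members could be called.

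The ligand DLL1, the Delta-like ligand of the list, was highest early. It stood at 62.1, 52.0, 50 and 25.2 CPM in WT on days 2, 5, 7 and 9 and at 64.9, 53.6, 43.8 and 27.4 CPM in CF. Both genotypes thus started near the same level and ended lowest on day 9. From day 2 to day 9 the log2 difference was -1.27 in WT (a ratio of 0.405) and -1.21 in CF (0.423). Between genotypes the log2 difference, CF minus WT, was 0.06, 0.04, -0.19 and 0.12. Against the SOX2-low WT cells, which held 68.6, 61.4, 67.4 and 22.8 CPM, it was -0.08, -0.19, -0.61 and 0.26. Of the days, only day 7 kept a negative sign and day 9 a positive one against both, and with equal weight for each class the day 9 difference was -0.47. Equal class weights take in only the classes with at least 50 cells in both libraries (3 on each day and for CF over time, and 2 for WT over time), so they also leave out cells, and the part of weights and of cells left out was not told apart.

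JAG1, a Jagged ligand known from bile duct and pancreatic duct development, ran the other way over time. Its levels were 63.0, 120, 118 and 128 CPM in WT and 65.3, 88.3, 156 and 172 CPM in CF. It was lowest on day 2 in both genotypes and highest on day 9, with log2 differences from day 2 to day 9 of 1.01 in WT (a ratio of 2.03) and 1.38 in CF (2.63). CF was lower than WT on day 5, by -0.44, and higher on days 7 and 9, by 0.40 and 0.42, with 0.05 on day 2. Against the SOX2-low WT cells, at 79.6, 73.1, 91.6 and 152 CPM, the differences were -0.28, 0.27, 0.76 and 0.18, so days 2 and 5 changed sign. With equal weight for each class day 9 changed sign too, to -0.22.

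JAG2, the other Jagged ligand, stood at 30.7, 33.3, 27.3 and 15.7 CPM in WT and at 35.7, 35.4, 38.5 and 28.1 CPM in CF. CF was the higher on each of the 4 days, with ratios of 1.16 (95% interval 1.11 to 1.22), 1.06 (1.01 to 1.12), 1.41 (1.32 to 1.51) and 1.79 (1.66 to 1.93). With equal weight for each class the log2 difference of day 9 was 0.05, where it was 0.80 over all cells. Which genotype was the higher also depended on which WT cells were taken. SOX2-low WT cells held 43.5, 45.4, 42.3 and 22.7 CPM, and against them CF was lower on days 2, 5 and 7, by -0.28, -0.35 and -0.13, and higher on day 9 alone, by 0.30.

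Of the receptors, NOTCH1 was lower and NOTCH2 higher in CF on all 4 days. NOTCH1 stood at 110, 83.5, 82.4 and 79.6 CPM in WT and at 84.2, 61.0, 71.5 and 67.2 CPM in CF, which gives log2 differences of -0.38, -0.45, -0.20 and -0.24. Against SOX2-low WT cells these were -0.08, -0.38, -0.09 and 0.13, so the day 9 difference changed sign. With each cell given equal weight the day 9 difference changed sign as well, to 0.14. NOTCH2 stood at 24.1, 34.3, 31.3 and 38.7 CPM in WT and at 52.7, 55.4, 60.2 and 49.6 CPM in CF. Every CF library was above every WT library for NOTCH2, and the ratios were 2.19 (2.09 to 2.29), 1.61 (1.54 to 1.69), 1.93 (1.82 to 2.04) and 1.28 (1.22 to 1.35). The NOTCH2 difference kept its sign against the SOX2-low WT cells, with log2 differences of 0.68, 1.08, 1.07 and 0.60. The gap was smallest on day 9, as WT was higher on day 9 than on day 2, by 0.66, while CF differed by -0.09. In SOX2-low WT cells NOTCH2 was at 32.5 CPM on both of these days.

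NOTCH3, of the 3 receptors of the list the one with the fewest UMIs, stood at 4.82, 5.73, 5.87 and 9.41 CPM in WT and at 5.23, 4.62, 5.58 and 5.54 CPM in CF. The intervals of the genotypes overlapped on days 2 and 7 and not on day 5, where WT was at 5.27 to 6.22 and CF at 4.13 to 5.14 CPM, and WT day 9 was above the other 7 libraries. SOX2-low WT cells held less of it, at 2.59, 1.96, 2.27 and 4.03 CPM, and against them CF was higher on each day, by 0.80, 0.92, 1.01 and 0.38.

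The target HES1, a repressor of NEUROG3 and of endocrine fate, differed most between genotypes at the first and the last day. It stood at 953, 731, 909 and 1078 CPM in WT and at 475, 856, 795 and 535 CPM in CF. CF was thus lowest on days 2 and 9 and above WT on day 5, with ratios of 0.498 (0.493 to 0.504), 1.17 (1.16 to 1.18), 0.875 (0.863 to 0.887) and 0.496 (0.490 to 0.503). Within WT, HES1 differed widely between the SOX2-low cells, at 1663, 1212, 1498 and 1800 CPM, and the remaining WT cells, at 849, 323, 599 and 762 CPM. Against the SOX2-low cells CF was lower on all 4 days, by -1.81, -0.50, -0.91 and -1.75 on the log2 scale, so the higher CF level of day 5 did not hold against these cells.

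HEY1, a repressor related to HES1, stood at 5.79, 5.64, 6.91 and 8.06 CPM in WT and at 8.69, 8.73, 6.02 and 3.68 CPM in CF. Over all cells it ran in opposite directions over time, with log2 differences from day 2 to day 9 of 0.42 in WT and -1.05 in CF. In SOX2-low WT cells it was lower on day 9 than on day 2, as in CF, at 7.15, 7.01, 7.41 and 5.07 CPM, and in the remaining WT cells it was at 5.59, 4.49, 6.64 and 9.36 CPM. CF was higher on days 2 and 5, by 0.51 and 0.55, and lower on day 9, by -0.95, and on day 7 the interval of the ratio, 0.740 to 1.02, included equal levels. Against the SOX2-low WT cells the same differences were 0.25, 0.28, -0.26 and -0.38.

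**Figure D1:**
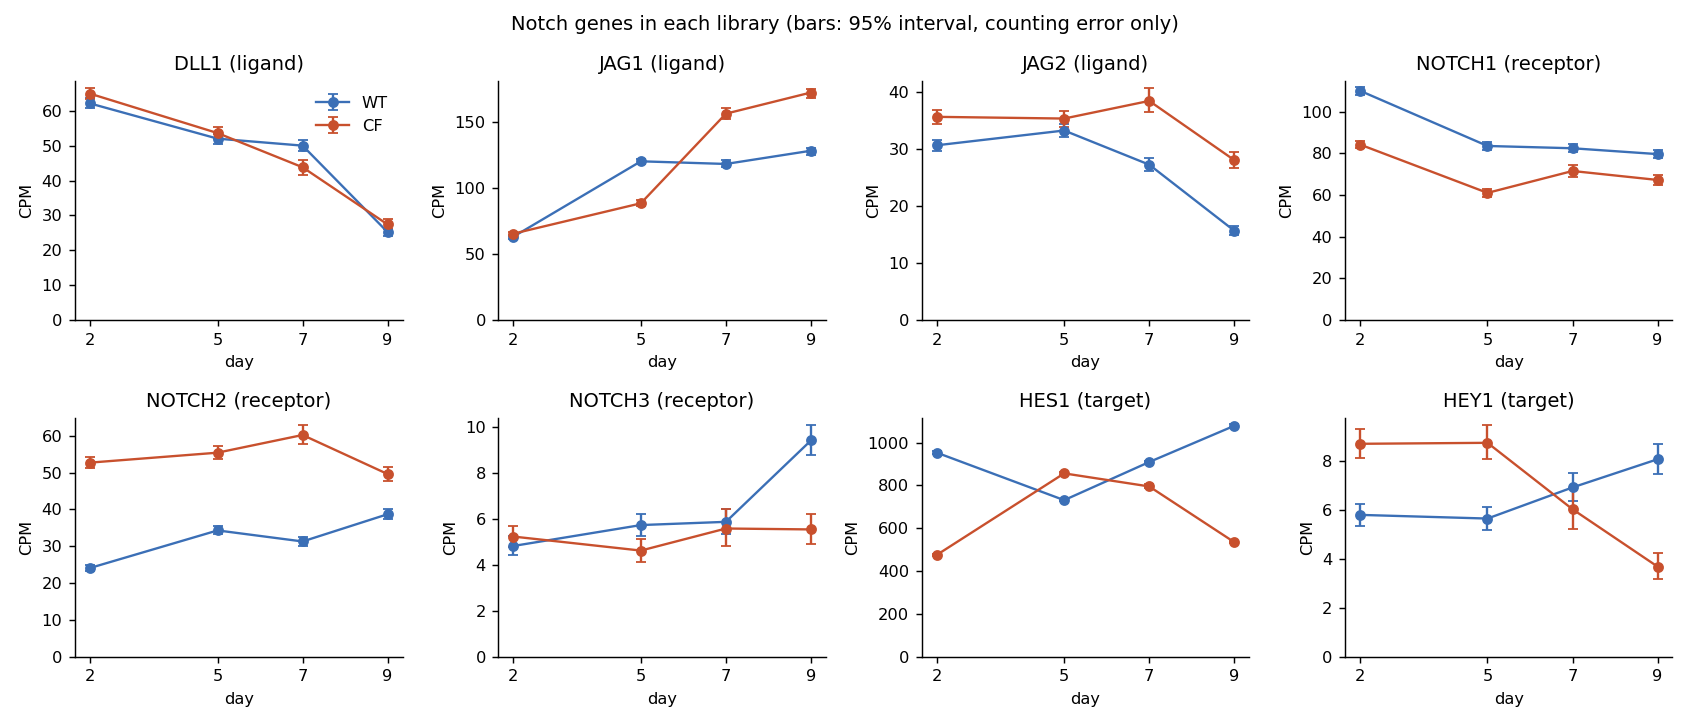
Level of each of the 8 measured Notch genes, in CPM of summed UMIs, by day at ALI (x axis) for WT (blue) and CF (orange) PDEs, 1 library per point, with exact Poisson 95% intervals that cover counting error only. DLL1 is lowest and JAG1 highest on day 9 in both genotypes, NOTCH2 is higher in CF on all 4 days (49.6 to 60.2 against 24.1 to 38.7 CPM), and HES1 is at 475 and 535 CPM in CF on days 2 and 9, where WT is at 953 and 1078 CPM.

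Few members passed the 2-fold limit, and each count has to be read against all genes. On day 2, NOTCH2 was called higher, as were 4.33% of 7899 genes, and HES1 was called lower, as were 4.06%. On day 5 no member was called, where 2.25% of genes were higher and 4.08% lower, and none was called on day 7, where the shares were 4.93% and 2.83%. On day 9, HES1 was called lower, as were 3.78% of genes, and no member was called higher, as were 3.56%. No member was called on all 4 days, as were 1.22% of genes upward and 1.60% downward. From day 2 to day 9, JAG1 was called higher and DLL1 lower in both genotypes, where 9.56% of genes were higher and 6.37% lower in WT, and 6.60% and 2.95% in CF. The day 2 calls lay at the limit, with log2 differences of 1.1 for NOTCH2 and -1.0 for HES1, and neither held with a pseudocount of 5 CPM or with each cell given equal weight. The day 9 call of HES1 lay there too, at -1.01, and was lost with each cell given equal weight, at -0.86. With time the WT call of JAG1 was lost under TMM scaling (0.87), under DESeq2 size factors (0.85) and with a pseudocount of 5 CPM (0.97), and under both scalings JAG2 passed, at -1.06 and -1.08. With equal weight for each class shared by both libraries the WT call of DLL1 (-0.64) and the CF call of JAG1 (0.51) were lost.

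The rest of the pathway was counted in the same way. Of 51 further genes of the pathway listed (other ligands and receptors, glycosyltransferases, the cleavage and transcription machinery, and regulators and targets), 27 or 28 reached 10 CPM in a comparison. Between genotypes 1 of these was called higher on days 2, 5 and 9 and 3 on day 7, and at most 1 was called lower on any day, beside shares over all genes of 2.25% to 4.93% higher and 2.83% to 4.08% lower. The median log2 difference over those tested was 0.20, 0.03, 0.36 and 0.10 on days 2, 5, 7 and 9, beside 0.00, -0.05, 0.14 and 0.09 over all genes tested. LFNG, the Fringe enzyme whose sugar transfer shifts receptors toward Delta-like ligands, was at 16.6, 30.2, 24.3 and 18.6 CPM in WT and 37.4, 44.8, 60.5 and 47.1 CPM in CF. It was higher in CF on every day and was called on days 2, 7 and 9, with log2 differences of 1.13, 1.28 and 1.29. TLE1, a co-repressor that works with HES proteins, was at 14.8, 11.9, 11.4 and 11 CPM in WT and 7.85, 4.80, 3.63 and 2.68 CPM in CF, and was called lower on days 5, 7 and 9. DLK2, an atypical ligand, was called higher in CF on days 5 and 7, with 1.64 and 1.91, where it was at 3.85 and 2.63 CPM in WT and 14.2 and 12.6 CPM in CF. MAML2, a co-activator of the RBPJ complex, was the remaining call, on day 7. These genes are named here after their values were seen. From day 2 to day 9, 4 of 28 were called higher and 1 lower in WT, beside 9.56% and 6.37% of all genes, and 2 of 27 higher and 1 lower in CF, beside 6.60% and 2.95%. NUMB, an inhibitor of Notch that sends receptors to degradation, had a log2 difference of 1.02 in WT and 1.07 in CF, and MAML2 of 1.2 and 1.46. DLK2 was the 1 called lower in both, with -4.05 and -1.92, and NUMB too was named after its values were seen. RBPJ, the DNA-binding partner of the cut receptor, stood at 70.3 to 104 CPM in WT and 79.1 to 98.4 CPM in CF. The remaining defining genes were scarce. DLL4 stood at 0.498 to 1.27 CPM, NOTCH4 at 0.573 to 0.790 CPM in WT and 1.07 to 2.33 CPM in CF, HES5 at no more than 0.425 CPM and HEYL at no more than 1.01 CPM. NEUROG3, the endocrine switch that HES1 represses, had 0 UMIs in all 8 libraries. Its exact Poisson intervals ended at 0.0322 to 0.106 CPM, and the floor of 3 counts was at 0.0262 to 0.0864 CPM.

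Which cells held the ligands and which the targets was read first from the class names and cluster numbers of the deposited cell table. WT and CF cells had been clustered apart, into 41 and 30 clusters, and each cluster carries 1 of 6 class names. A listed marker of the cluster's own class stood among its 10 leading genes in 14 of the 71 clusters. For those of them named ductal it was KRT15 alone, which is also a basal keratin. In 13 others the name was in doubt, because a marker of another class led or because shallow cells showed none of their own, and in the rest no listed marker spoke for or against it. Names are therefore used as deposited, and levels by class are read only within a genotype. The equal class weights are an exception, since between genotypes they match classes of WT and CF by name. All levels by class and cluster describe cells that were grouped with these same counts.

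In CF the 3 ligands peaked in 1 named class. In all 4 CF libraries the class named centroacinar was highest for DLL1 (126, 82.3, 66.6 and 32.8 CPM), for JAG1 (112, 119, 223 and 206 CPM) and for JAG2 (69.0, 55.1, 59.5 and 34.7 CPM). The same class was highest for HES1 in all 4, at 749, 1108, 981 and 552 CPM. CF ligands and the main target thus peaked in the same named class on each day, although on day 9 the HES1 interval overlapped that of the next class. HEY1 peaked there in 3 of the 4 CF libraries, at 12.0, 10.8 and 7.63 CPM on days 2, 5 and 7, with an interval that overlapped the next class on days 2 and 5.

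In WT the class named ductal was highest for DLL1 on all 4 days, at 75.0, 76.8, 80.1 and 47.0 CPM, and for JAG1, at 70.2, 162, 164 and 201 CPM. JAG2 peaked elsewhere on days 2, 5 and 7, in proliferating acinar cells at 40.8 CPM and then in proliferating ductal cells at 53.7 and 47.9 CPM, and in ductal cells at 32.9 CPM on day 9, and its interval overlapped that of the next class on days 5 and 7. HES1 was highest in the same class on days 2 and 9, at 1097 and 1394 CPM, and in proliferating ductal cells on days 5 and 7, at 1064 and 1317 CPM. HEY1 had no constant place in WT: its highest class was the one named proliferating acinar on day 2, proliferating ductal on day 5 and centroacinar on days 7 and 9, between 6.53 and 11 CPM. On days 2, 5 and 9 its interval overlapped that of the next class.

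Cells named centroacinar progenitor had the lowest ligand levels in CPM among the classes with at least 50 cells. DLL1 was lowest there in all 8 libraries, at 10.1, 6.72, 7.19 and 6.97 CPM in WT and 8.07, 10.1, 2.89 and 3.05 CPM in CF. JAG2 was lowest there too, at 3.53, 1.53, 1.63 and 1.28 CPM in WT and 2.89, 5.35, 1.44 and 0.704 CPM in CF. JAG1, NOTCH1 and HES1 had their lowest class there in all 8 libraries as well, with HES1 at 300, 303, 453 and 812 CPM in WT and 182, 444, 403 and 372 CPM in CF. The other 2 receptors were placed differently. In CF, NOTCH2 was lowest in the centroacinar class, where the ligands peaked, at 20.6, 46.4, 37.5 and 40.6 CPM, and highest in the centroacinar progenitors on days 2, 5 and 7, at 78.6, 86.8 and 102 CPM. The interval of ductal cells overlapped that of the lowest class on day 5 (46.8 CPM) and that of the highest on day 7 (91.7 CPM). NOTCH3 was likewise lowest in the CF centroacinar class, at 1.99, 3.01, 2.99 and 4.35 CPM, against 8.47 and 8.30 CPM in the progenitors on days 2 and 5 and 9.94 and 11.1 CPM in ductal cells on days 7 and 9. In WT the highest class for NOTCH2 was centroacinar progenitor on days 2 and 5, at 42.8 and 40.9 CPM, and centroacinar on days 7 and 9, at 35.4 and 43.2 CPM. The lowest WT class for NOTCH2 was at 16.6, 31.1, 27.8 and 34.6 CPM, so from day 5 on its WT classes lay close together.

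Clusters showed the same division more sharply. JAG2 varied most, from 0.783 to 201 CPM over the 37 WT clusters with at least 50 cells and a median of at least 3000 UMIs, and from 1.08 to 283 CPM over the 27 such CF clusters. That spread was wider than that of 98.4% of genes in WT and 99.2% in CF. Its top values came from shallow clusters, and at a median of at least 5000 UMIs the highest were 59.6 CPM in WT and 79.6 CPM in CF. DLL1 spanned 3.57 to 208 CPM in WT and 3.31 to 171 CPM in CF, wider than 95.4% and 96.3% of genes. HES1 was more even, at 267 to 2317 CPM in WT and 186 to 1400 CPM in CF, wider than 76.4% and 72.1%. A highest level at least 8-fold over the lowest was found for 6 of the 8 members in WT, where 25.1% of genes did so, and for 7 of the 8 in CF, where 26.2% did so. NOTCH2 and HEY1 were the members short of it in WT, and HES1 in CF. NOTCH1 reached it through shallow clusters only, since at a median of at least 5000 UMIs its highest levels were 148 CPM in WT and 113 CPM in CF, over a lowest of 31.5 and 37.3 CPM. Genes were counted for the 8-fold limit if a cluster reached 10 CPM, and NOTCH3 entered at 20.0 CPM in WT and 11.5 CPM in CF. The members were listed with earlier results of these data known, so these counts are a description.

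Clusters are named mainly from the 2 highest and the lowest of a genotype for each member, and not all of these appear. The highest for DLL1 was WT cluster 20, with 208 CPM (189 to 229), but its cells were shallow, with a median of 3396 UMIs. It was followed by WT cluster 4, with 137 CPM (131 to 143) in 1030 cells, nearly all of day 2. In CF, cluster 27 led with 171 CPM at a median of 4718 UMIs, and cluster 2, whose 678 cells were nearly all of day 2, held 155 CPM (147 to 163). These 2 deep clusters also held HES1 above the cluster medians of 821 CPM in WT and 533 CPM in CF, at 1306 CPM in WT cluster 4 and 1008 CPM in CF cluster 2. That was not so of every deep cluster with much DLL1, since WT clusters 2 and 23, with 97.2 and 84.3 CPM of DLL1 where the median WT cluster had 34.1, held 267 and 332 CPM of HES1. CF cluster 2, which is named ductal and not centroacinar, was in addition the highest CF cluster for HEY1, at 25.9 CPM (22.9 to 29.2).

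The shallow clusters 20 and 38 of WT and 23 and 27 of CF were the 2 highest of their genotype for JAG1, for JAG2 and for NOTCH1. JAG1 reached 607 and 467 CPM in the WT pair and 828 and 644 CPM in the CF pair, where the median cell had 2726 to 4718 UMIs, and the part of shallow depth in these levels was not tested. Among clusters with a median of at least 5000 UMIs, JAG1 was highest in WT cluster 2, at 343 CPM (334 to 352), and in CF cluster 11, at 401 CPM (389 to 413). Both held HES1 below the median of their genotype. WT cluster 2 had the lowest HES1 level of the WT clusters with at least 50 cells, at 267 CPM (260 to 275), with 97.2 CPM of DLL1 and 2.02 CPM of HEY1. CF cluster 11 held 425 CPM of HES1, with 24.5 CPM of DLL1 and 3.55 CPM of HEY1. The shallow WT cluster 38 was the opposite case, rich in both JAG1 and HES1.

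HES1 was highest in WT cluster 38, at 2858 CPM in 60 shallow cells, and in WT cluster 8, at 2317 CPM (2292 to 2343). Cluster 8 held 810 cells, 801 of them of day 9, with 33.2 CPM of DLL1 and 209 CPM of JAG1. WT clusters 0 and 19 were other HES1-rich clusters, named here after their values were seen, with 1788 and 2069 CPM of HES1 beside 97.2 and 94.5 CPM of DLL1. SOX2 was at 0.806, 1.78 and 2.44 CPM in WT clusters 0, 8 and 19, so these belonged to the SOX2-low set, while JAG1-rich cluster 2 had 103 CPM. In CF the highest clusters were 0 and 16, with 1400 (1381 to 1419) and 1341 (1315 to 1367) CPM of HES1 and 126 and 121 CPM of DLL1. Low ligand and low target met in CF cluster 7, with 3.31 CPM of DLL1, 1.08 CPM of JAG2, 295 CPM of HES1 and 1.49 CPM of HEY1, nearly all from day 9. Cluster 7 too is named centroacinar, so the CF class that was highest for the ligands also held the lowest cluster for DLL1 and JAG2. The lowest CF cluster for JAG1 and for HES1 was cluster 4, named centroacinar progenitor, at 32.6 and 186 CPM.

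The highest clusters for NOTCH2 and NOTCH3 were mostly ones where DLL1 and JAG2 were scarce. WT cluster 16 led for both, at 71.8 CPM of NOTCH2 and 20.0 CPM of NOTCH3, with 2.74 CPM of JAG2. WT cluster 33 was the next for NOTCH2, at 65.7 CPM, with 15.1 CPM of DLL1 and 9.83 CPM of JAG2. CF cluster 17 was among the 2 highest for both, at 115 and 11.5 CPM, with 4.79 CPM of DLL1 and 1.78 CPM of JAG2. CF cluster 19 was the other for NOTCH3, likewise at 11.5 CPM, with 7.17 CPM of DLL1 and 4.15 CPM of JAG2. Among these clusters there were 2 exceptions. NOTCH2 reached 124 CPM in the shallow CF cluster 27, which was also the highest CF cluster for DLL1 and JAG2. NOTCH3 reached 17.5 CPM in WT cluster 23, which held 84.3 CPM of DLL1, 212 CPM of JAG1 and 42.0 CPM of JAG2 beside 332 CPM of HES1. Over the clusters of a library, Pearson's r of NOTCH2 with DLL1 was -0.51 to 0.08 in WT, positive in 2 of 4 libraries. With JAG2 it was -0.38 to 0.03 in WT, and in CF it was negative in 4 of 4 libraries with both ligands. For NOTCH3 it was negative in 8 of 8 libraries with both.

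**Figure D2:**
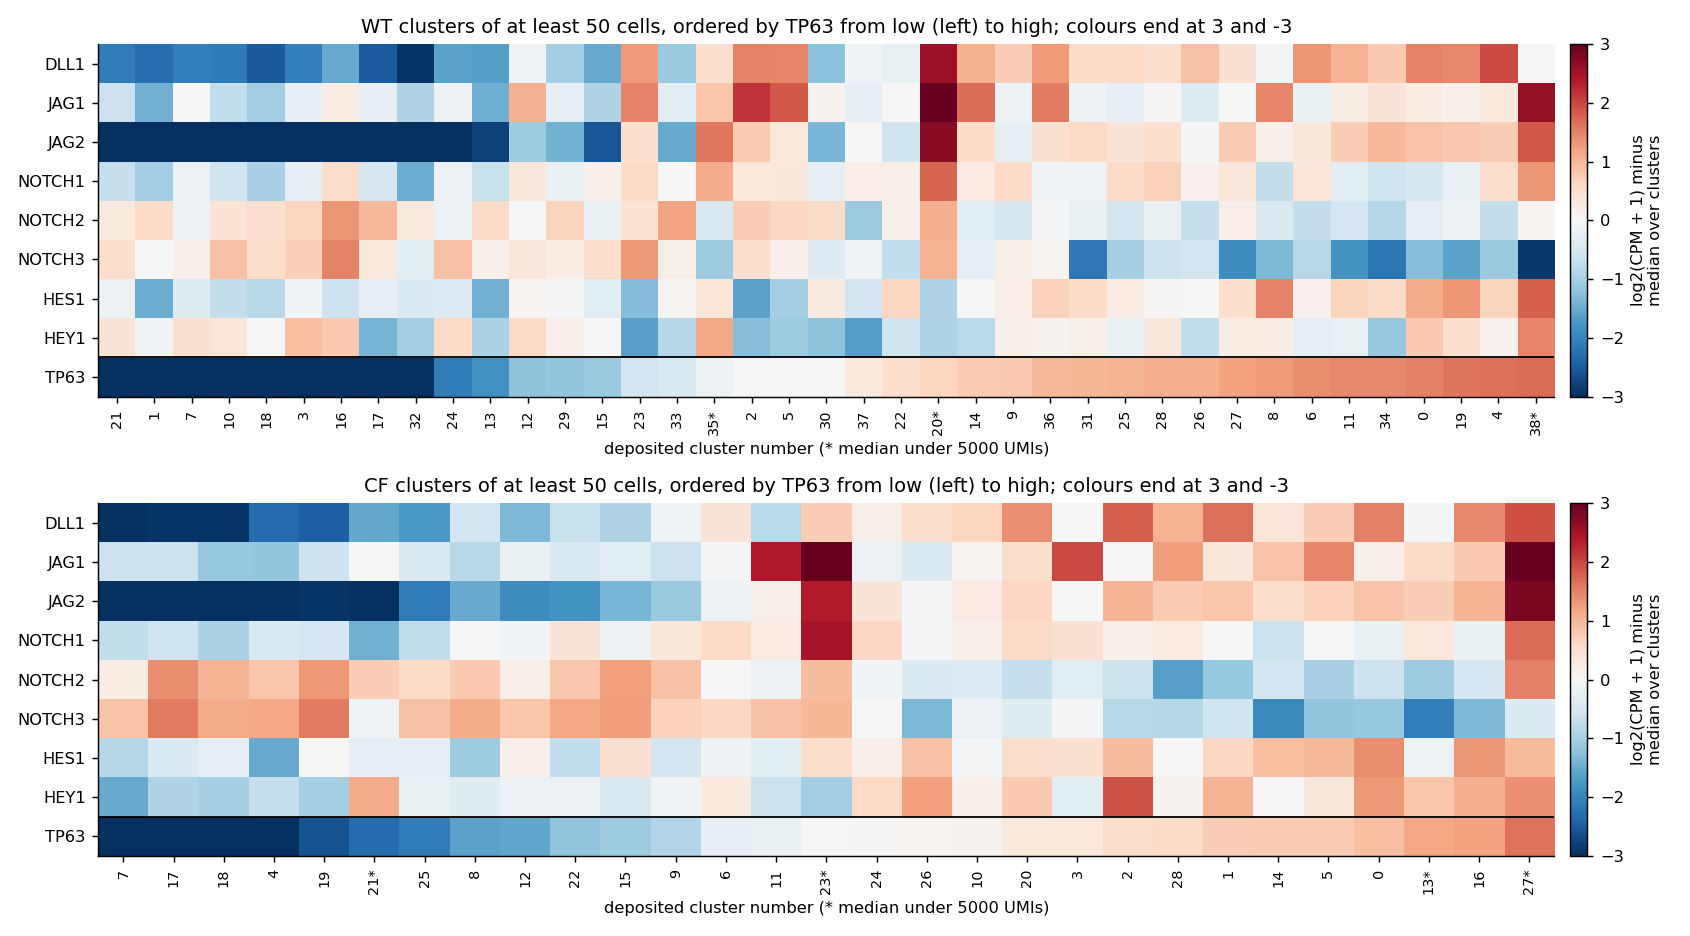
Level of the 8 measured Notch genes in each deposited cluster of at least 50 cells, WT and CF apart, as log2(CPM + 1) minus the gene's median over clusters (colour, ending at -3 and 3), with clusters ordered by their TP63 level and an asterisk where the median cell had fewer than 5000 UMIs. DLL1 and JAG2 run with TP63 in both genotypes (r of 0.86 and 0.92 over WT clusters, 0.94 and 0.94 over CF clusters), and NOTCH2 and NOTCH3 run against it.

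Over the clusters, DLL1 and JAG2 ran closely with basal epithelial genes, and the other members less closely or against them. TP63 is the transcription factor that defines basal cells of stratified and airway epithelia, and KRT5, KRT15, ITGA6 and COL17A1 are other genes of such cells. Over all clusters of a genotype, Pearson's r of log2(CPM + 1) with TP63 was 0.86 for DLL1, 0.92 for JAG2, 0.48 for JAG1, 0.52 for NOTCH1 and 0.59 for HES1 in WT. In CF it was 0.94, 0.94, 0.63, 0.48 and 0.75. DLL1, JAG1, JAG2, NOTCH1 and HES1 had a positive r with 6 of 6 basal genes tested in both genotypes, though in WT the lowest of the 6 was 0.01 for HES1 and 0.04 for JAG1. By its r with JAG1, TP63 had rank 3357 among 10667 genes in WT and 2179 among 10635 in CF. By its r with NOTCH1 it had rank 2217 and 2495. For DLL1 its rank was 92 and 4, for JAG2 32 and 15, and for HES1 238 and 96. NOTCH2 (-0.52 in WT and -0.65 in CF with TP63) and NOTCH3 (-0.67 and -0.78) had a positive r with 0 of 6. HEY1 differed between the genotypes over all clusters, with an r with TP63 of -0.03 in WT and 0.73 in CF. Over the 12 SOX2-low WT clusters alone it was 0.66, and over the 29 other WT clusters -0.25. The 2 highest WT clusters for HEY1, 3 and 16, held 12.7 and 11.7 CPM of it beside 2.16 and 2.29 CPM of TP63. These points share libraries, depth and the counts that defined them, so the values are a description.

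Within single libraries the signs held for most members. Over the 10 to 21 clusters with at least 50 cells in a library, the r with TP63 was 0.77 to 0.98 for DLL1, 0.83 to 0.99 for JAG2, 0.56 to 0.87 for JAG1, 0.36 to 0.69 for NOTCH1 and 0.30 to 0.91 for HES1. It was thus positive in 8 of 8 libraries for these 5 genes. For NOTCH2 it was -0.89 to -0.11 and for NOTCH3 -0.87 to -0.18, negative in 8 of 8. HEY1 was positive in 4 of 4 CF libraries, at 0.66 to 0.94, and in 1 of 4 WT libraries. Depth moved with some members: over all WT clusters the r with the log2 median UMI count was -0.52 for JAG1 and -0.61 for NOTCH1, and over CF clusters -0.39 and -0.24. Over the 27 CF clusters of at least 100 cells and a median of at least 3000 UMIs it was -0.73 for JAG1, -0.79 for NOTCH1, -0.65 for JAG2 and -0.53 for DLL1, and the part of depth was not tested.

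TP63 itself moved with genotype and day. It was at 86.4, 58.3, 58.7 and 29.4 CPM in WT and 72.0, 83.4, 101 and 60.8 CPM in CF, so it was 2.07-fold higher in CF on day 9. KRT15, a basal keratin, was the 1 gene of the lists used here that was called in the same direction on all 4 days, at 131, 27.9, 34.1 and 16.8 CPM in WT and 17.4, 10.1, 4.09 and 1.60 CPM in CF. COL17A1, a collagen of the basal cell's anchorage, went the other way and was called higher in CF on days 7 and 9, with log2 differences of 1.09 on both, at 163 and 126 CPM in WT and 348 and 270 CPM in CF. From day 2 to day 9, 4 of 6 basal genes were called lower in WT (TP63, KRT5, KRT15 and ITGA6) and 2 of 6 in CF (KRT5 and KRT15), beside 6.37% and 2.95% of all genes. Luminal and surface epithelial genes went opposite ways, with 4 of 9 called higher in WT (KRT7, MUC1, MUC16 and ELF3) and 2 of 9 called lower in CF (KRT4 and MUC1), beside 9.56% and 2.95% of all genes. On day 9, 3 of 9 were called lower in CF than in WT (KRT4, MUC1 and MUC16), beside 3.78% of all genes. Cell cycle genes moved too. Of those tested, 9 of 9 were called lower in CF on days 2 and 5 and 4 of 4 on day 7. The shares over all genes were 4.06%, 4.08% and 2.83%. On day 9, 0 of the 10 listed reached 10 CPM in either library, so none could be called. From day 2 to day 9, 9 of 9 were called lower in WT and 5 of 5 in CF, beside 6.37% and 2.95% of all genes. The part of basal, of luminal and of dividing cells in the members' differences by day and genotype was not tested.

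Over the clusters of CF the ligands and HES1 gave higher correlations than over those of WT. Between the ligands the order was shared, with an r of DLL1 with JAG2 of 0.93 over 41 WT clusters and 0.94 over 30 CF clusters, and of 0.84 to 0.99 within the 8 libraries. Ligand against target, the r with HES1 over WT clusters was 0.33 for DLL1, 0.18 for JAG1 and 0.46 for JAG2, and over CF clusters it was 0.74, 0.50 and 0.72. By its r with DLL1, JAG1 and JAG2, HES1 had rank 4227, 5703 and 3219 among 10667 genes in WT. In CF it had rank 380, 3335 and 764 among 10635 genes, so many genes ran closer to JAG1 than HES1 did. With HEY1, DLL1 had an r of -0.06 in WT and 0.78 in CF. NOTCH3 ran against HES1 in both, at -0.76 and -0.69, and in 8 of 8 libraries.

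**Figure D3:**
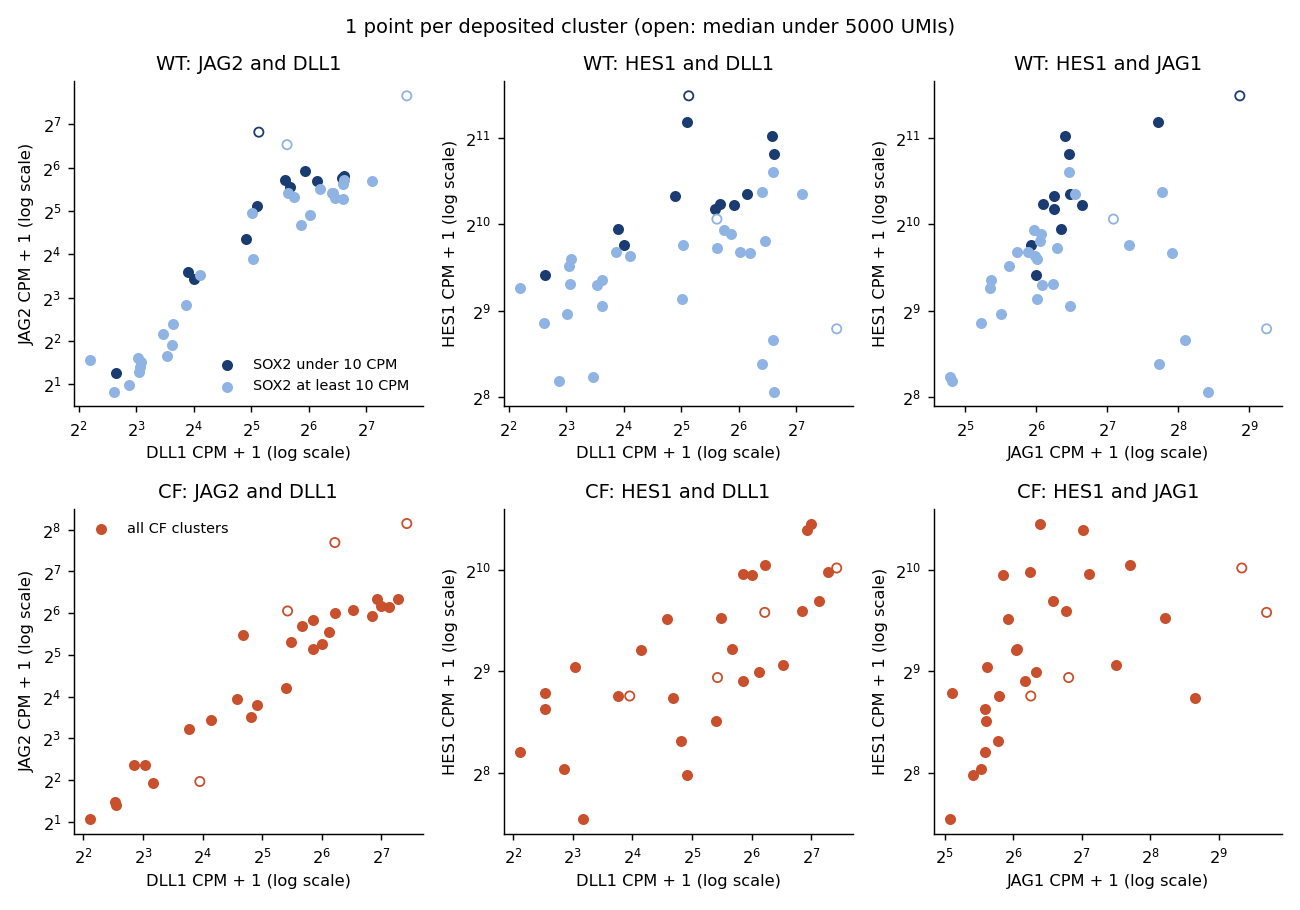
Level in each deposited cluster, as CPM + 1 on log axes, of JAG2 against DLL1, HES1 against DLL1, and HES1 against JAG1, for WT and CF; dark WT points are clusters with less than 10 CPM of SOX2, light ones those with 10 CPM or more, and open points have a median under 5000 UMIs. JAG2 tracks DLL1 in both genotypes (r of 0.93 and 0.94), and at like DLL1 levels the dark WT clusters lie mostly above the light ones in HES1.

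The WT relation depended on the day and on the SOX2 level. For DLL1 with HES1 the r over the clusters of the WT libraries of days 2, 5, 7 and 9 was 0.78, 0.18, 0.47 and -0.22, and for the CF libraries 0.95, 0.94, 0.88 and 0.65. For JAG1 with HES1 it was 0.86, -0.22, 0.13 and 0.04 in WT and 0.67, 0.67, 0.42 and 0.44 in CF. For JAG2 with HES1 it was 0.85, 0.32, 0.59 and 0.07 in WT and 0.93, 0.90, 0.78 and 0.55 in CF. On days 5, 7 and 9 the WT value was thus below the CF value of the same day for each of the 3 ligands, and every CF library gave a positive value. With HEY1 the ligands ran positive in WT on day 2 only, at 0.51 for DLL1, 0.75 for JAG1 and 0.64 for JAG2, and between -0.63 and -0.01 on the later days. The 12 SOX2-low WT clusters alone gave an r of 0.61, 0.80 and 0.77 for DLL1, JAG1 and JAG2 with HES1 and of 0.61, 0.63 and 0.76 with HEY1. The 29 other WT clusters gave 0.27, -0.02 and 0.30 with HES1 and -0.27, -0.24 and -0.28 with HEY1. Over the 12 SOX2-low clusters the r with the log2 median UMI count was -0.83 for JAG1, -0.64 for HES1 and -0.57 for HEY1. For DLL1 it was 0.02 and for JAG2 -0.29, and the part of depth in these values was not tested. Whether r differs between genotypes was not tested, since each library gives a single value.

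**Figure D4:**
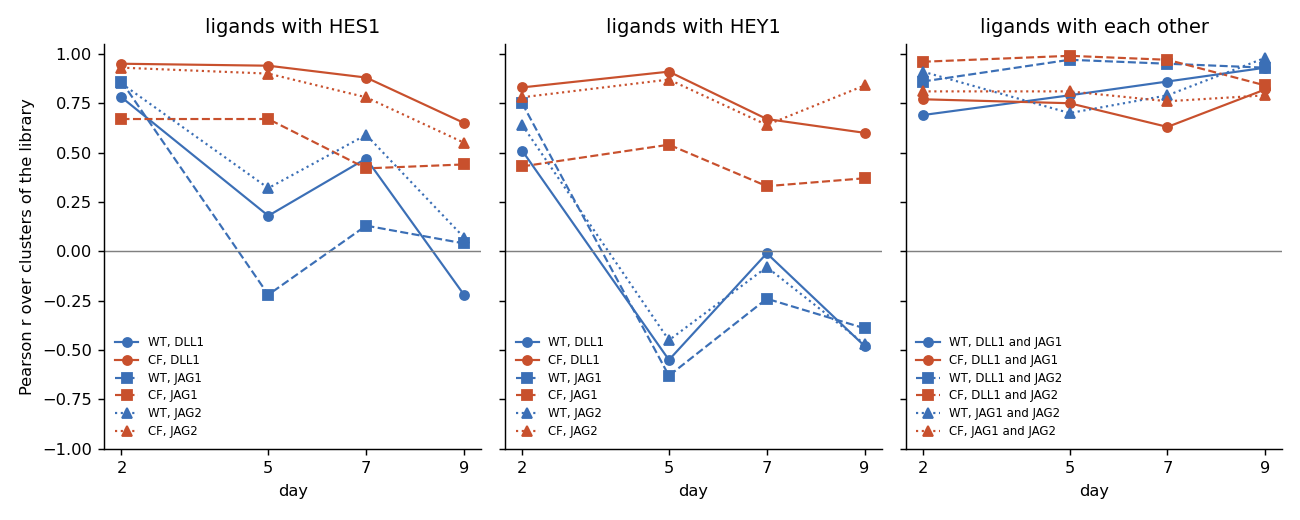
Pearson's r of log2(CPM + 1) over the clusters with at least 50 cells of each library, by day, for each ligand with HES1, each ligand with HEY1, and the ligands with each other, WT and CF. Ligand pairs stay between 0.63 and 0.99 in all 8 libraries, CF ligand-target values are all above 0, and WT ligand-target values are 0.51 to 0.86 on day 2 and -0.63 to 0.59 later.

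Cells were then compared one by one. Each cell was thinned to 3000 UMIs and shallower cells were left out, 73 to 150 in a WT library and 39 to 411 in a CF library. A DLL1 UMI was found in 16.5%, 13.9%, 12.4% and 6.82% of the cells in WT on days 2, 5, 7 and 9, and in CF it was found in 18.8%, 15.5%, 14.2% and 7.99%. A JAG2 UMI was found in 8.69%, 9.18%, 7.5% and 4.75% in WT, and in 12.2%, 11.6%, 14.3% and 9.93% in CF. The cluster with the lowest share in its library, among those with at least 50 cells there, had 0% to 3.37% for DLL1, 0% to 1.47% for JAG2 and 5.41% to 11.5% for JAG1, where 16.8% to 38.3% of all cells had a JAG1 UMI. Free RNA was not measured apart, and these lowest shares are the nearest to a background for each gene. HES1 was found in 83.4%, 60.8%, 72.4% and 76.1% in WT and in 66.2%, 81.2%, 72.2% and 66.1% in CF, and its lowest such cluster had 30.2% to 63.2%, so no HES1-free cells were at hand to set its background.

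CF cells with a DLL1 UMI held HES1 more often than those without on every day, in 77.3% against 63.6%, 90.7% against 79.5%, 83.5% against 70.4% and 80.1% against 64.9% of cells. The exact 95% intervals did not overlap in 4 of the 4 CF libraries. In WT the shares were 92.0% against 81.7% on day 2, 61.1% against 60.7% on day 5, 79.0% against 71.5% on day 7 and 73.1% against 76.3% on day 9. WT cells were thus apart on days 2 and 7 alone. Compared within clusters, the gap was 2.18 to 3.52 percentage points in WT, positive in 4 of 4 libraries, and -0.129 to 10.5 in CF, positive in 3 of 4. In CF it was smaller than over all cells on each day, and in WT it was smaller on days 2 and 7 and larger on days 5 and 9.

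For JAG1 the relation changed with the day. WT cells with a JAG1 UMI held HES1 more often on day 2, in 88.5% against 82.3%, and less often on day 5, in 52.2% against 64.4%, with 72.8% against 72.2% on day 7 and 75.3% against 76.4% on day 9. Within clusters the day 5 gap of -12.2 percentage points was 0.650, and the WT gaps were -0.611 to 2.07. In CF the intervals were apart on day 2 alone, with shares of 70.2% against 65.3%, 84.8% against 80.2%, 72.4% against 72.2% and 66.6% against 65.9%. WT cells with JAG2 held HES1 in 88.0% against 82.9%, 64.2% against 60.4%, 81.6% against 71.7% and 71.3% against 76.3%, apart on days 2 and 7, and within clusters the gap was -4.52 to 1.68 points, positive in 2 of 4. For JAG2 the CF shares were 75.5% against 64.9%, 89.1% against 80.2%, 82.5% against 70.5% and 72.0% against 65.5%. They were higher in 4 of 4 CF libraries, with intervals apart on days 2, 5 and 7. Within clusters they were higher in 2 of 4 at 3000 UMIs. After thinning to 10000 UMIs the JAG2 gap within CF clusters was 0.634 to 1.68 points, positive in 4 of 4. Within WT clusters it was then positive in 3 of 4.

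**Figure D5:**
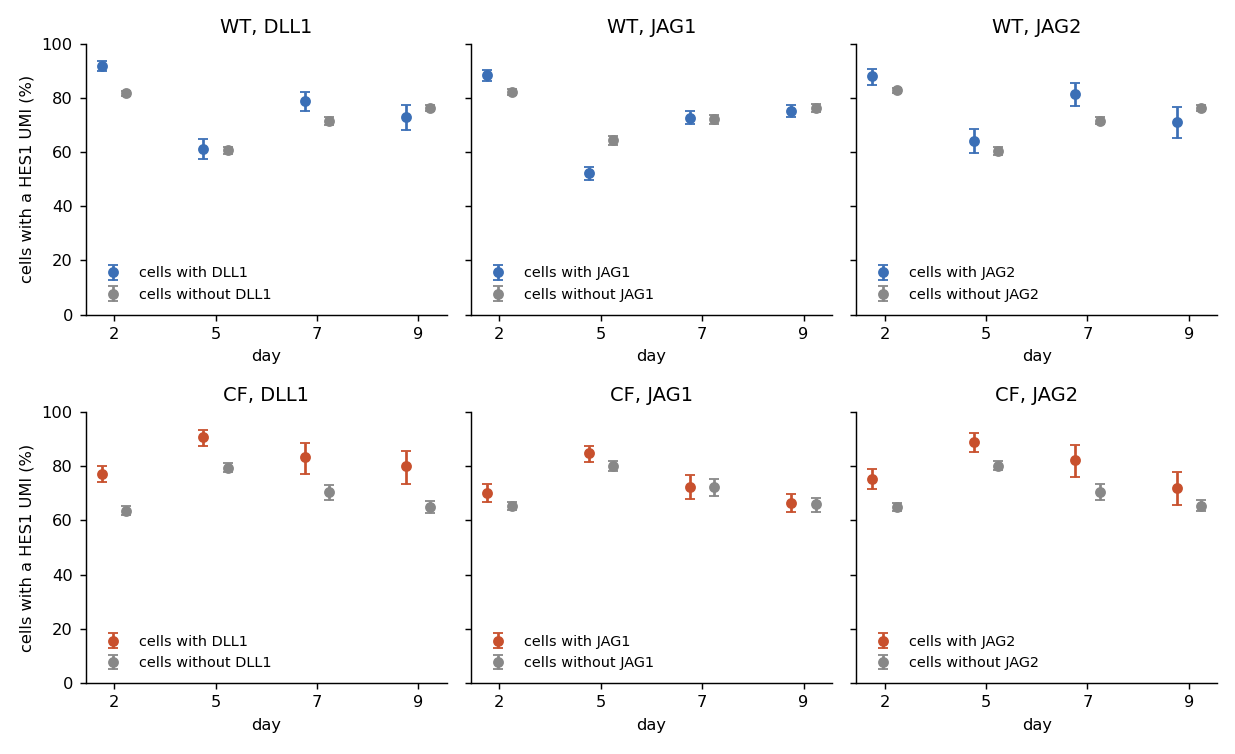
Percent of cells with a HES1 UMI among cells with and without a UMI of each ligand, by genotype and day, each cell thinned to 3000 UMIs, with exact Clopper-Pearson 95% intervals that cover counting error only. In CF the cells with DLL1 lie above those without it on all 4 days (77.3% to 90.7% against 63.6% to 79.5%), and in WT the cells with JAG1 lie below on day 5 (52.2% against 64.4%), a gap of -12.2 points that was 0.650 within clusters.

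Ligands were also compared with each other, and HEY1 with HES1. Cells with DLL1 held JAG2 more often than cells without it in 8 of 8 libraries, by 3.28 to 9.51 percentage points in WT and 7.03 to 16.2 in CF, with intervals apart in all 8. Within clusters that gap was -0.536 to 2.22 points in WT and 0.906 to 3.22 in CF. Cells with DLL1 held JAG1 more often in 8 of 8 libraries too, by 4.70 to 20.0 points in WT and 2.26 to 14.8 in CF, with intervals apart in 4 of 4 WT and 2 of 4 CF libraries, but within clusters the gap was -3.04 to 2.08 and -5.93 to 3.03. For JAG2 in cells with JAG1 it was 2.74 to 6.48 and 4.42 to 9.67 points, apart in 4 of 4 and 3 of 4, and within clusters -0.332 to 3.09 and -4.22 to 3.93. Cells with the target HEY1 held HES1 more often in 8 of 8 libraries, by 5.71 to 13.4 points in WT and 5.82 to 16.3 in CF, with intervals apart in 3 of 4 WT and 1 of 4 CF libraries, and within clusters by 3.71 to 10.5 and 1.37 to 4.94. Few cells had a HEY1 UMI, 1.68% to 2.65% in a WT library and 1.41% to 3.12% in a CF library. In CF these were 24 cells on day 7 and 32 on day 9.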

How the data were processed

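Members, gene lists and the SOX2 split were chosen with earlier results of these data known. Per the study's methods, the authors aligned reads to the ferret genome ASM1176430v1.1 with Cell Ranger 5.0.1, kept cells of few mitochondrial reads, removed doublets, merged libraries in Seurat (R 4.1.2) without batch correction, clustered each genotype apart and named classes against published references. The deposited matrices hold UMI counts, the deposited cell table gives each cell's count total, its percent of mitochondrial UMIs, cluster and class, and the deposited pseudotime scores come from slingshot. A normalized table was not used.

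Counts of the listed cells were summed by library, class and cluster (Python 3.11.15, numpy 2.4.6, pandas 2.3.3, scipy 1.17.1, matplotlib 3.10.9) and scaled to CPM over 1000000. Differences are of log2(CPM + 1), ratios have exact conditional binomial 95% intervals, levels exact Poisson and shares Clopper-Pearson ones. All cover counting error only, and the floor for 0 UMIs was 3 counts. With 1 library for each genotype and day no test was run. Alternatives were TMM (edgeR 4.0.16) and DESeq2 1.42.0 size factors in R 4.3.3, a pseudocount of 5 CPM, all barcodes, cells of at least 3000 UMIs, a mean over cells, equal weights for classes with at least 50 cells in both libraries, SOX2-low WT clusters and thinning to 10000 UMIs. The fold and interval calculations were tested on simulated data. Libraries shared 1 to 14 barcodes in each of 28 pairs.

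Named were all members, list genes called in 1 direction on all 4 days, and the 3 genes most alike to a member. DLL4, NOTCH4, HES5, HEYL, NEUROG3 and RBPJ were named as well. Clusters were named from each member's 2 highest (at least 50 cells and 10 UMIs) and its lowest, and not all of these appear. Symbols were matched to the RefSeq gene table of the ferret for 27467 of 27912 features. That table names no chromosome for the members, so positions and sequences are not given. Other numbered clusters were chosen after their values were seen.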

Additional observations from a re-analysis of the deposited data

Results flagged for a closer look

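Several members moved one way in one library pair and the other way in another, and none of these contrasts was tested, since each group was 1 library. Between genotypes (log2 CF minus WT), DLL1 was at 0.12 on day 9 and -0.19 on day 7, JAG1 at 0.42 on day 9 and -0.44 on day 5, HES1 at 0.23 on day 5 and -1.01 on day 9, and HEY1 at 0.55 on day 5 and -0.95 on day 9. Over time (log2 day 9 minus day 2), NOTCH2 was at 0.66 in WT and -0.09 in CF, and HEY1 at 0.42 in WT and -1.05 in CF. In SOX2-low WT cells, NOTCH2 was at 32.5 CPM on both days and HEY1 at 7.15 and 5.07 CPM, so neither was higher on day 9 there.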

How the results depend on the processing

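No paired analysis was run, because the labels carry no replicate numbers. The 4 days were not taken as replicates of a genotype, as nothing says that their libraries come from separate animal pools. A fit with day as a block was not run. The number of members 2-fold or more apart between genotypes on day 2 was 2, and it was 0 with a pseudocount of 5 CPM and 0 with a mean over cells, 1 with equal class weights and 1 against SOX2-low WT cells. Equal class weights also leave out classes under 50 cells in either library, so 3 classes entered here and 2 in the WT time course. It was 0 on day 5, and 1 against SOX2-low cells. It was 0 on day 7, and 1 with a mean over cells, 1 with equal class weights and 1 against SOX2-low cells. From day 2 to day 9 in WT it was 2, and 1 with a pseudocount of 5 CPM and 1 with equal class weights. Day 9 and the CF time course kept counts within 1.5 times, but on day 9 the mean over cells called JAG2 (1.27) in place of HES1 (-0.86), and in the CF time course equal class weights called JAG2 (-1.29) in place of JAG1 (0.51). Of the single differences between genotypes, 12 of 32 changed sign against SOX2-low cells and 7 of 224 under the other alternatives, and 8 of 112 differences over time did so. Scaling by TMM moved all genotype differences by -0.16 on day 7 and -0.10 on day 9, and those over time by -0.15 in WT and -0.20 in CF, where DESeq2 gave -0.24. Splits by library, by SOX2 and by a median of 5000 UMIs, and shares within clusters, were chosen after seeing the data. The median r of the 3 ligands with HES1 over WT clusters was 0.33, with 0.77 in SOX2-low clusters and 0.85, 0.18, 0.47 and 0.04 in the libraries of days 2, 5, 7 and 9. With HEY1 in WT it was -0.02, with -0.22 over clusters of at least 100 cells and a median of at least 3000 UMIs, -0.13 at a median of at least 5000 UMIs, 0.63 in SOX2-low and -0.27 in the other clusters, and 0.64, -0.55 and -0.47 on days 2, 5 and 9. In CF it was 0.72 with HES1, with 0.93, 0.90 and 0.55 on days 2, 5 and 9, and 0.62 with HEY1, with 0.83 at a median of at least 5000 UMIs and 0.78 and 0.87 on days 2 and 5. Target shares were higher in cells with the ligand in 4 of 4 WT libraries for DLL1 with HEY1, but in 2 after thinning to 10000 UMIs. For JAG1 with HEY1 in WT this was 1 of 4, with 0 after thinning to 10000 UMIs and 3 without thinning, and for JAG2 with HEY1 it was 1, with 3 after thinning to 10000 UMIs, 3 without thinning and 2 within clusters. In CF it was 4 of 4 for JAG1 with HES1, with 2 at 10000 UMIs and 1 within clusters, and 4 for JAG2 with HES1, with 2 within clusters. These CF counts within clusters are at 3000 UMIs, and at 10000 UMIs they were 3 for JAG1 and 4 for JAG2. The cause of these changes was not tested.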

Other observations

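Along the deposited pseudotime, an ordering of cells built from the same counts that starts, per the study's methods, in the cluster richest in day 2 cells, 15 WT and 13 CF lineages were cut into 5 bins of equal cell number. Lineages share cells, so their counts are a description. DLL1 was lower in the last bin than in the first in 14 of 15 WT and 13 of 13 CF lineages, with a median log2 difference of -1.39 in both. NOTCH2 was higher at the end in 13 of 15 WT and 11 of 13 CF lineages, with medians of 0.43 and 0.52. HEY1 was lower at the end in 13 of 13 CF lineages (median -1.09) and in 9 of 15 WT lineages (-0.16). JAG1 was higher at the end in 4 of 15 WT lineages (median -0.67) and in 8 of 13 CF lineages (0.26).

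The genes whose levels over clusters were most like a member's differed between genotypes. For DLL1 they were EVA1B (r = 0.95), KRT5 (0.94) and DZIP1 (0.94) over 41 WT clusters among 10667 genes, and SLC2A1 (0.96), ETS2 (0.96) and KCNJ12 (0.95) over 30 CF clusters among 10635 genes. For JAG1 they were TMEM132A (0.97), MAP7D1 (0.96) and VAV2 (0.96) in WT and NAV2 (0.96), PAK1 (0.96) and PHLDB2 (0.95) in CF. For JAG2 they were ST3GAL2 (0.96), DST (0.96) and IER5L (0.95) in WT and VEGFA (0.98), NHS (0.98) and PPP5C (0.97) in CF. The receptors had less close companions. NOTCH1 had NECTIN1, EPPK1 and SYNJ2 in WT (each 0.87) and STOX2 (0.88), PLD2 (0.87) and FAM43A (0.87) in CF. NOTCH2 had SNX19, SERINC5 and ZFYVE16 in WT (each 0.84) and SYNRG (0.91), ERBB2 (0.90) and LMBRD2 (0.90) in CF. NOTCH3 had BAAT, NDRG2 and ACADSB in WT (each 0.85) and USP2 (0.87), MTUS2 (0.86) and AXIN2 (0.85) in CF. HES1 had PATZ1 (0.82), ADM (0.81) and JUN (0.81) in WT and SKIL (0.88), FGFR2 (0.88) and ELF2 (0.87) in CF. HEY1 had ZFP36L2 (0.78), USP28 (0.73) and FOXC1 (0.71) in WT and LPAR1 (0.88), TRPV2 (0.87) and PPP1R14C (0.86) in CF. All points share libraries, depth and the counts the clusters were made from.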
